A study of Homo sapiens with 12 samples.

Results

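Endoplasmic reticulum (ER) chaperone and unfolded protein response genes were examined in human lens epithelial cells that differed in ATG7, a gene needed to build autophagosomes, and in exposure to H2O2. The genes were taken by symbol: 33 named genes out of 58735 in the deposited tables, all of them found, comprising 5 stress sensors and transcription factors, 9 chaperones of the Hsp70 and Hsp90 systems with their co-chaperones, 3 genes of the lectin chaperone cycle, 4 protein disulfide isomerases, 9 genes of ER-associated degradation (ERAD) and 3 of the translocon. The cells were HLE-B3, a line immortalized from the epithelium of the human lens, and RNA-seq covered 4 groups of 3 libraries: WT cells and Atg7KO cells, each untreated (0 h) or given 200 μM H2O2 for 12 h. The Atg7KO cells carry a CRISPR/Cas9 knockout of ATG7 and came from clones picked after transfection and puromycin selection. How many clones entered the libraries is not given in the sources used here, so loss of ATG7 and other differences between the lines cannot be told apart, and with untreated cells taken at 0 h, H2O2 and 12 h of culture cannot be told apart either. The design text calls the replicates biological, and nothing says that they were separate cultures, so p-values measure the spread between these libraries.

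The ER folds and glycosylates secreted and membrane proteins. When unfolded proteins accumulate, 3 membrane sensors signal to the nucleus: IRE1 (gene ERN1) splices the XBP1 mRNA, ATF6 is cleaved to release a transcription factor, and PERK (EIF2AK3) slows translation and raises ATF4. Their targets include the Hsp70 chaperone BiP (HSPA5), folding enzymes, and the ERAD machinery that sends misfolded proteins to the proteasome. Gene counts show the level of an mRNA, not the splicing of XBP1, the cleavage of ATF6 or the phosphorylation of PERK. In bulk RNA, a change in the number of cells of a kind and a change in RNA per cell cannot be told apart.

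Short promoter elements for this response are known, and they were searched in the 250 bases before and 50 bases after each RefSeq transcription start (GRCh38.p14) on both strands. Only exact matches to 1 pattern per element were counted, so near matches are neither listed nor marked. The ER stress element, ERSE, was in 27 of 35116 promoters (0.0769%). It was found in promoters of 7 of the 30 member genes with a promoter in the table, which were HSPA5, XBP1, HSP90B1, CALR, CANX, PDIA6 and CRELD2. The shorter element ERSE-II was in 19 promoters (0.0541%), among them those of HERPUD1, SDF2L1 and, with 2 copies, HYOU1. The core TGACGTGG (CCACGTCA) of the unfolded protein response element was in 256 promoters (0.729%) and in 1 member, HYOU1, where it overlaps a copy of ERSE-II. DERL1, DERL3 and PDIA3 had no promoter in the table. The upstream bases of HSPA5, with the ERSE in capitals at -66 to -48 from the start, are chr9:125241344-125241593 on the minus strand. The other lines show, for members described below, the element in capitals with 5 bases on each side, read 5′ to 3′ on the strand of the gene.
HSPA5 upstream: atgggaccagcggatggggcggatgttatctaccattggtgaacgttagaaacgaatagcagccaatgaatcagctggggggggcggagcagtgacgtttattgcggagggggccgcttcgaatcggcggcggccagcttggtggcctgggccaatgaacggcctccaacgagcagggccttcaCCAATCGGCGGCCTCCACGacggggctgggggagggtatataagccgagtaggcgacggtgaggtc
XBP1 ERSE: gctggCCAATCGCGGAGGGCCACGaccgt
HSP90B1 distal ERSE: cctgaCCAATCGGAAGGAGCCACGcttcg
HSP90B1 proximal ERSE: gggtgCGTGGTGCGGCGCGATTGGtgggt
CALR ERSE: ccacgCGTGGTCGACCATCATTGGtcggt
HERPUD1 ERSE-II: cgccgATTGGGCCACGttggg
SDF2L1 ERSE-II: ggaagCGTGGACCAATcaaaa
The windows are chr22:28800598-28800626 on the minus strand for XBP1, and on the plus strand chr12:103930211-103930239 and chr12:103930316-103930344 for HSP90B1, chr19:12938379-12938407 for CALR, chr16:56932020-56932040 for HERPUD1 and chr22:21642109-21642129 for SDF2L1. By the deposited annotation, HSP90B1 begins at position 103930107, so both of its elements lie within that gene model. A match is a description of the letters, and binding was not measured.

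Libraries held between 15602183 and 17659496 reads on genes, of which the members took 0.731 to 0.897%. Reads per member and library ran from 213 (SDF2L1) to 31631 (HSPA5), apart from DERL3, a derlin of secretory cells, which had 11 reads over all 12 libraries, at most 2 in a library, and was not tested. The Atg7KO untreated replicate 1 library stood apart: its mean correlation with its own group was 0.974, against 0.991 in WT untreated and in both H2O2 groups. Each library was also set against the mean of the other libraries of its group. Its members deviated by a median of 0.327 on the log2 scale, against 0.029 to 0.070 in those groups. In it 17 members lay more than 0.3 from the mean of the other libraries, from -0.94 for CREB3L2 to 0.90 for SDF2L1. For the members the results turn on, the value without this library is therefore given beside the value with it. ATG7 mRNA was not lower in the Atg7KO line, with mean FPKM of 2.55 in WT untreated, 3.55 in Atg7KO untreated, 1.96 in WT with H2O2 and 2.19 in Atg7KO with H2O2. An edited gene can still be transcribed, so this level does not check the knockout. Of 11 lens epithelium markers, 2 or 3 per group had a mean above 1 FPKM (GJA1 and SIX3 in every group, PAX6 in both untreated groups and CRYAB in WT with H2O2), and FOXE3, PROX1, MAF, SOX2, CRYAA and CDH1 were at or near 0. Of 10 mesenchymal markers 7 or 8 were above 1 FPKM, led by COL1A1 and VIM, with a summed level of 1257 to 1270.2 FPKM in WT untreated, 725 to 756 in WT with H2O2, 941 to 1045 in Atg7KO untreated and 635 to 657 in Atg7KO with H2O2. The sum of the lens epithelium markers was between 30.01 and 31.1 FPKM in WT untreated, 47.1 and 50.9 in WT with H2O2, 26.4 and 27.9 in Atg7KO untreated and 53.3 and 56.4 in Atg7KO with H2O2, most of it GJA1. Both sums moved with H2O2, in opposite directions, and their part in the results was not tested. At most 1 of 9 lens fibre markers and 1 of 5 white blood cell markers were above 1 FPKM in a group.

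FPKM, which is scaled to gene length and library size, allows levels of different genes to be set side by side. Its sum over all genes ran from 240552 to 297685 between libraries. The highest sum was that of untreated Atg7KO replicate 1, with 265936 the next, so FPKM set between libraries carries this difference. In untreated WT cells CALR, the calcium-binding lectin chaperone calreticulin, had the highest level of the members, at 345 ± 6.69 FPKM (SD, n = 3). HSPA5, CANX (calnexin, the membrane-bound partner of CALR) and HSP90B1 (GRP94, the Hsp90 of the ER) followed at 187 ± 9.32, 177 ± 6.75 and 176 ± 6.88, with library values that overlapped. P4HB, a disulfide isomerase, stood at 149 ± 4.66. The sensors were far lower. ERN1 stood at 2.07 ± 0.142, EIF2AK3 at 3.39 ± 0.119 and ATF6 at 12.5 ± 0.267 FPKM, and these 3 did not overlap. The heat map of all tested members shows each library against this group.

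**Figure D1:**
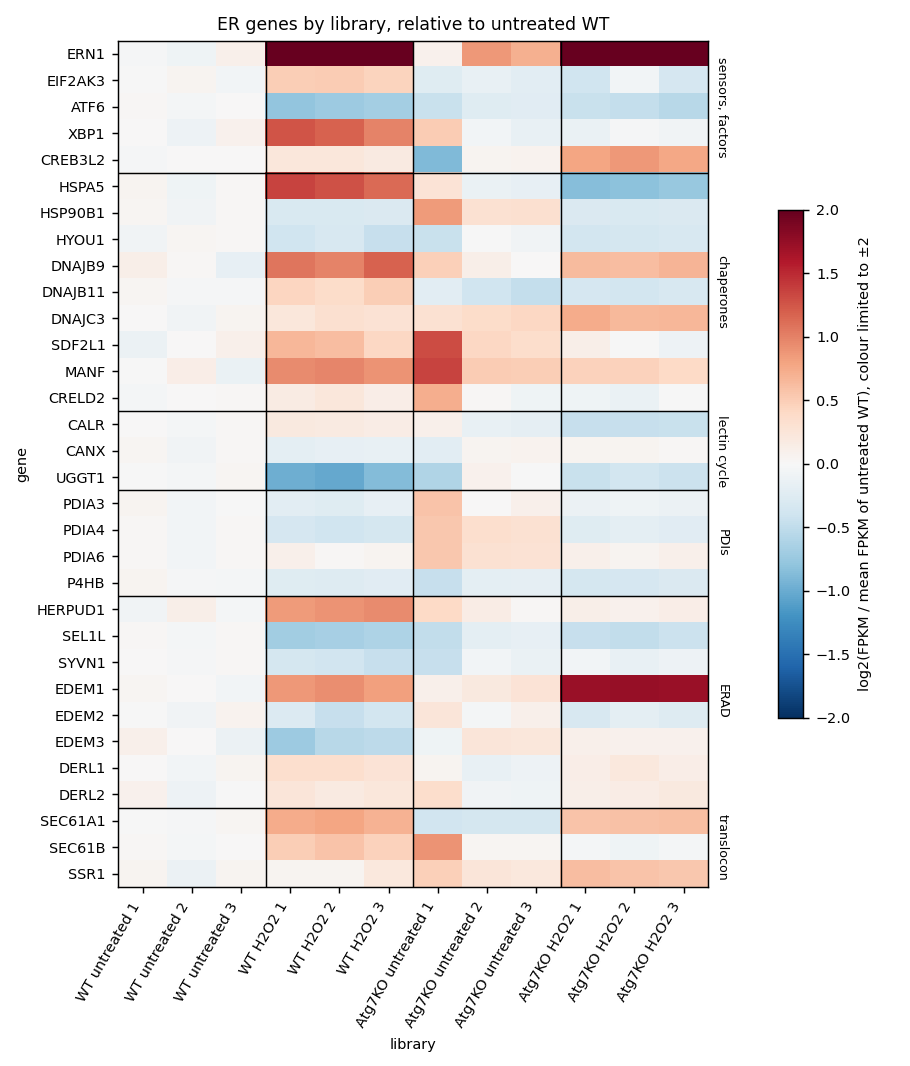
Level of the 32 tested members (rows, grouped by role) in the 12 libraries (columns), as log2 of FPKM over the mean FPKM of untreated WT, with colour limited to ±2. ERN1, XBP1, HSPA5, DNAJB9, HERPUD1 and MANF are raised in the 3 WT libraries with H2O2, EDEM1 most in the 3 Atg7KO libraries with H2O2, and the column of untreated Atg7KO replicate 1 differs from the other columns of its group.

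The first question was how WT cells responded to H2O2. Of 32 members tested, 17 rose and 12 fell at an adjusted p under 0.01, the threshold used for every count of members here, against 30.9% of all 15913 genes higher and 30.1% lower. The sensor ERN1 rose most and the glucosyltransferase UGGT1 fell most. The 4 members ERN1, HSPA5, XBP1 and DNAJB9 also passed a log2 fold change beyond 1 with a mean FPKM above 1, the 3 thresholds together. Of all genes 12.5% passed them in either direction. The median change of the members was 0.19 on the log2 scale, and that of all genes -0.01. These are edgeR quasi-likelihood tests with Benjamini-Hochberg adjustment over all genes tested, as are all adjusted p-values given.

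Among sensors and factors 4 rose and 1 fell in WT cells, against 30.9% and 30.1% of all genes. ERN1 (chr17:64039142-64130819) stood at 2.03, 1.95 and 2.23 FPKM in the untreated libraries and at 17.9, 19.3 and 16.3 FPKM with H2O2, an 8.58-fold rise (log2 3.10 ± 0.06 SE, adjusted p = 5.94e-37). XBP1 (chr22:28794555-28800597), whose mRNA is the substrate of ERN1, stood at 18.9, 17.7 and 20.03 FPKM untreated and at 45.3, 42.7 and 37.6 with H2O2 (2.21-fold, adjusted p = 9.06e-20). EIF2AK3 rose by less, from 3.38, 3.51 and 3.27 FPKM to 4.76, 4.79 and 4.60 (log2 0.47 ± 0.09, adjusted p = 4.27e-06). For none of these genes did the groups overlap, as was so for 30 of the 32 members. The share of all genes without overlap was not counted. ATF6 moved the other way, from 12.7, 12.2 and 12.6 FPKM to 7.26, 7.58 and 7.80 (log2 -0.74 ± 0.05, adjusted p = 8.92e-17). CREB3L2, an ER-anchored factor that, like ATF6, is released by cleavage, rose slightly, from 19.4, 19.8 and 19.7 FPKM to 23.1, 23.0 and 22.3 (log2 0.21 ± 0.04, adjusted p = 4.84e-05), a call that was lost in a fit of all 12 libraries (0.21, adjusted p = 0.353).

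Of the 9 chaperones and co-chaperones 6 rose and 2 fell in WT cells, against 30.9% and 30.1% of all genes. HSPA5 (chr9:125234853-125241330) had 195, 177 and 190.0 FPKM untreated and 477, 451 and 409 with H2O2, a 2.37-fold rise (log2 1.25 ± 0.05, adjusted p = 1.98e-22). DNAJB9, a J-domain partner of BiP, rose from 7.93, 7.43 and 6.53 FPKM to 15.3, 14.5 and 16.6 (log2 1.08 ± 0.08), and MANF, a secreted BiP cofactor, from 11.4, 12.5 and 10.5 to 22.2, 22.6 and 21.4 (log2 0.94 ± 0.07). In contrast, HSP90B1 fell from 181, 168 and 178 FPKM to 143, 142 and 144 (log2 -0.30 ± 0.04, adjusted p = 6.06e-09), and HYOU1, a large Hsp70-related nucleotide exchange factor, fell as well (log2 -0.40 ± 0.05). The other rises, of SDF2L1, DNAJB11 and DNAJC3, were between 0.27 and 0.56 on the log2 scale, and CRELD2, at 0.17 ± 0.07, did not pass the test.

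In WT cells 1 of the 3 genes of the lectin chaperone cycle rose and 2 fell. Of the 4 disulfide isomerases 0 rose and 3 fell, against 30.9% and 30.1% of all genes. UGGT1, which tags unfolded glycoproteins for another round of folding, fell from 19.6, 19.2 and 20.2 FPKM to 10.0, 9.71 and 10.8 (log2 -0.95 ± 0.05, adjusted p = 8.75e-23). CANX fell and CALR rose, by 0.18 and 0.17 on the log2 scale. PDIA3, PDIA4 and P4HB fell by between 0.21 and 0.36, and PDIA6, at 0.06 ± 0.04, did not pass the test. Of the 8 ERAD genes tested 4 rose and 4 fell, against 30.9% and 30.1% of all genes. HERPUD1, an adaptor of the membrane ubiquitin ligase, rose from 6.07, 6.92 and 6.20 FPKM to 11.5, 11.9 and 12.3 (log2 0.89 ± 0.06, adjusted p = 8.94e-17), and EDEM1 (chr3:5187646-5219957), a mannosidase that marks glycoproteins for disposal, from 10.3, 10.1 and 9.59 to 18.3, 19.0 and 17.7 (log2 0.87 ± 0.05, adjusted p = 7.68e-20). DERL1 and DERL2, derlins of the ERAD channel, rose by 0.32 and 0.21. The ligase SYVN1, its partner SEL1L and the EDEM1 relatives EDEM2 and EDEM3 fell by between 0.37 and 0.66. In the translocon, SEC61A1, the pore subunit, rose by 0.74 ± 0.04 and SEC61B by 0.50 ± 0.05, while SSR1 was at 0.10 ± 0.05. Members with an ERSE differed in direction in the same cells: HSPA5, XBP1 and CALR rose, HSP90B1 and CANX fell, and PDIA6 and CRELD2 did not pass the test. Of the ERSE-II genes HERPUD1 and SDF2L1 rose and HYOU1 fell. Among all genes 30.9% rose and 30.1% fell, and a part of the elements in these changes was not tested.

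**Figure D2:**
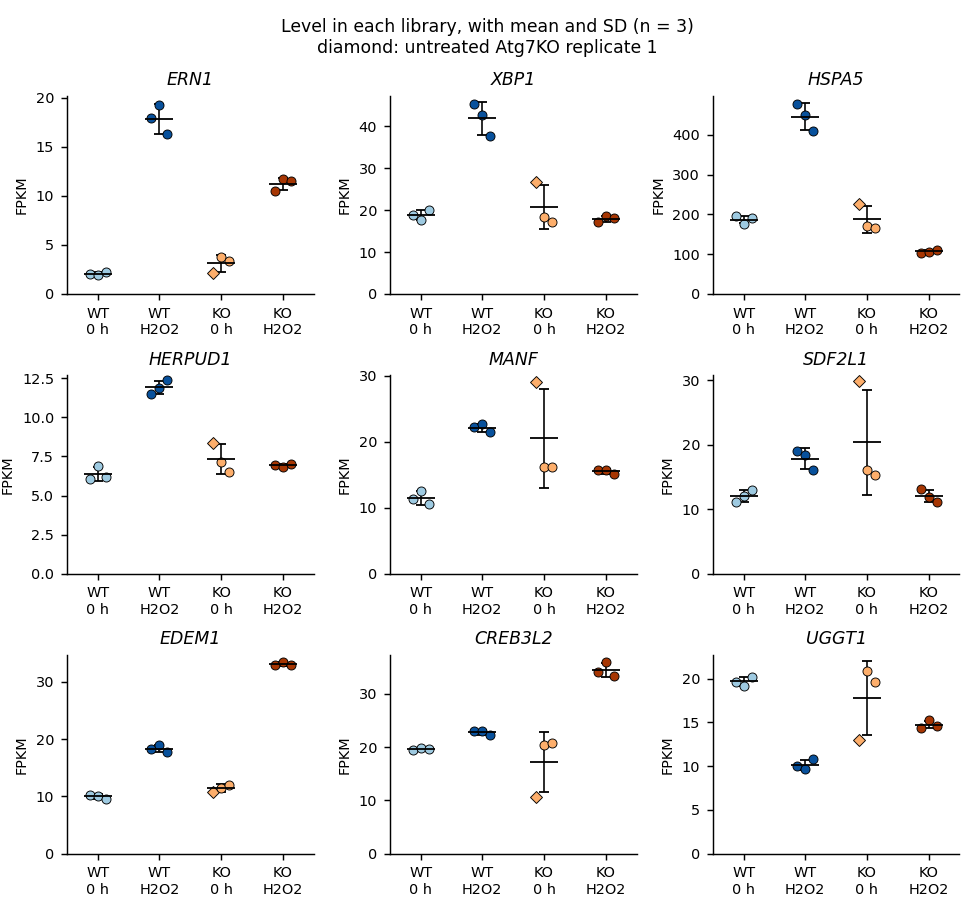
FPKM of 9 members in each library, with the mean and SD (n = 3) of the 4 groups, on axes that start at 0 (KO, Atg7KO). HSPA5, XBP1, HERPUD1 and ERN1 are highest in the 3 WT libraries with H2O2, EDEM1 and CREB3L2 in the 3 Atg7KO libraries with H2O2, and the diamond of untreated Atg7KO replicate 1 lies off its group for MANF (29.1 against 16.2 and 16.2 FPKM).

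The same question was asked of Atg7KO cells. With all libraries 3 members rose and 3 fell, against 13.6% of 15475 genes higher and 12.4% lower. Without untreated replicate 1 the counts were 9 and 14, against 29.8% and 28.6%. ERN1 rose from 2.19, 3.76 and 3.39 FPKM to 10.5, 11.7 and 11.5 (log2 1.85 ± 0.20, adjusted p = 0.000523; 1.64 ± 0.05 without replicate 1). EDEM1 rose from 10.7, 11.5 and 12.1 FPKM to 32.9, 33.4 and 32.9 (log2 1.53 ± 0.09, adjusted p = 4.26e-05; 1.48 ± 0.04 without replicate 1). These 2 passed all 3 thresholds, as 11.2% of all genes did in either direction. SEC61A1 was the other member that rose, from 71.2, 72.3 and 72.5 FPKM to 137, 138 and 140.4 (log2 0.94 ± 0.09, adjusted p = 0.000249; 0.92 ± 0.03 without replicate 1).

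HSPA5 went down in Atg7KO cells. Its libraries held 226, 171 and 166 FPKM untreated and 104, 106 and 111 with H2O2 (log2 -0.81 ± 0.14, adjusted p = 0.00325). The groups did not overlap, as was so for 19 of the 32 members, and the share of all genes was not counted. The change was -0.67 ± 0.03 without untreated replicate 1, and the call was lost when any replicate with H2O2 was left out (adjusted p 0.0205 to 0.0245, log2 -0.79 to -0.83). HSP90B1 fell from 317, 218 and 219 FPKM to 144, 142 and 143 (log2 -0.81 ± 0.16, adjusted p = 0.0065), and PDIA4, a disulfide isomerase, from 143, 126 and 122 to 84.1, 86.2 and 84.9 (log2 -0.62 ± 0.10, adjusted p = 0.00236). Without untreated replicate 1 they were -0.62 ± 0.03 and -0.55 ± 0.03. Both calls were likewise lost when any H2O2 replicate was left out, at changes of -0.80 to -0.81 for HSP90B1 and -0.61 to -0.62 for PDIA4. That of HSP90B1 was also lost without untreated replicate 3 (-0.90, adjusted p = 0.0114) and by limma on log2 FPKM (adjusted p = 0.0121 and 0.0125), and those of both genes with the replicate block (adjusted p = 0.0102 and 0.0103). XBP1 had 26.8, 18.3 and 17.1 FPKM untreated and 17.2, 18.6 and 18.0 with H2O2 (log2 -0.21 ± 0.17, adjusted p = 0.36), groups that overlapped, and its change was 0.01 ± 0.06 without replicate 1. EIF2AK3 (-0.06 ± 0.13) and ATF6 (-0.20 ± 0.10) did not pass the test, and ATF6 did without replicate 1 (-0.27 ± 0.05, adjusted p = 5.8e-07). CREB3L2 stood at 10.7, 20.3 and 20.7 FPKM untreated and at 34.0, 35.96 and 33.4 with H2O2 (log2 0.99 ± 0.25, adjusted p = 0.0164). It passed by DESeq2, in a fit of all 12 libraries, with the gene length correction and with no low count filter, with adjusted p-values from 0.000393 to 0.00578, at changes of 0.95 to 1.003. It also passed without replicate 1, which held its lowest level (log2 0.74 ± 0.04, adjusted p = 3.1e-57).

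WT and Atg7KO responses share no library. EDEM1, ERN1 and SEC61A1 rose in both lines, HSP90B1 and PDIA4 fell in both, HSPA5 rose in WT and fell in Atg7KO, and 0 members fell in WT and rose in Atg7KO. Of 14895 genes tested in both lines, 11.2% rose in both, 9.41% fell in both, 0.336% rose in WT and fell in Atg7KO and 0.322% did the reverse. Without untreated Atg7KO replicate 1, 8 members rose in both lines (CREB3L2, DERL1, DERL2, DNAJB9 and DNAJC3 in addition) and 10 fell in both (ATF6, EDEM2, EDEM3, HYOU1, P4HB, PDIA3, SEL1L and UGGT1 in addition). CALR and SDF2L1 then joined HSPA5 in rising in WT and falling in Atg7KO, and 0 did the reverse. The shares of all genes were then 20.2%, 19.5%, 1.89% and 2.52% in the same order.

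**Figure D3:**
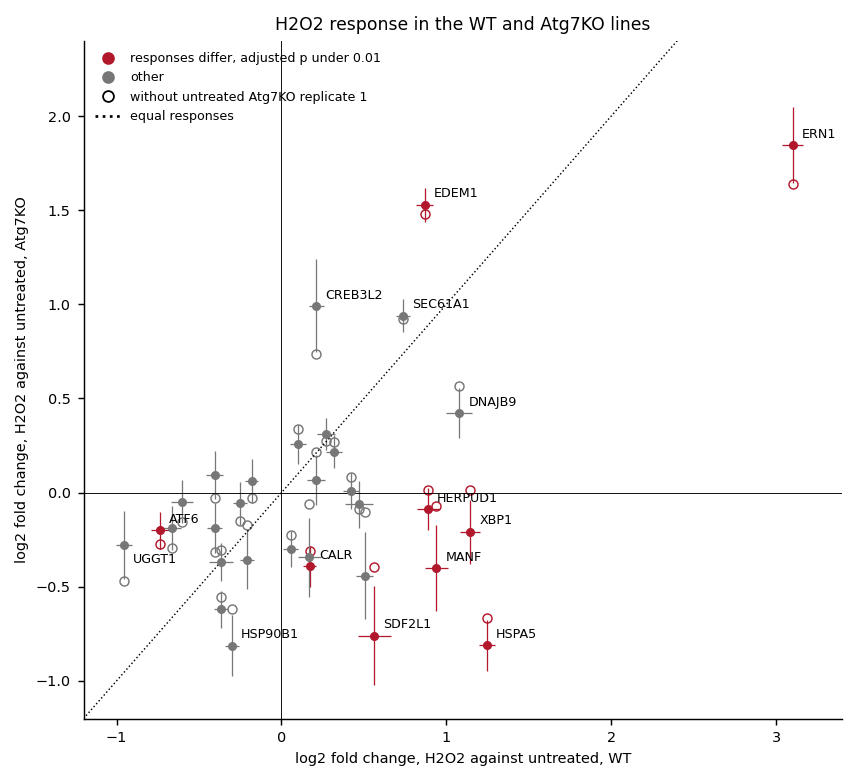
Log2 fold change of H2O2 against untreated in WT (horizontal axis) and Atg7KO (vertical axis) for the 32 tested members, with SE bars; open circles give the Atg7KO value without untreated replicate 1, and red marks the 9 members whose responses differed. HSPA5, XBP1, MANF, SDF2L1, CALR and HERPUD1 lie right of 0 and below the dotted line of equal responses, with HSPA5 at 1.25 and -0.81, while EDEM1 lies above it at 0.87 and 1.53.

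Whether the responses of the lines differed was tested by the interaction in all 12 libraries, written here as the log2 response of Atg7KO minus that of WT. It was negative for 7 members and positive for 2, against 7.01% and 7.02% of 16856 genes. Without untreated replicate 1, 14 were negative and 10 positive, against 16.3% and 17.8%. HSPA5 differed most, by -2.06 ± 0.16 (adjusted p = 1.04e-05), followed by XBP1 at -1.35 ± 0.20 (0.000519 for the adjusted p), the BiP cofactor MANF at -1.34 ± 0.26 (0.00248), SDF2L1, a partner of the J-domain protein DNAJB11, at -1.32 ± 0.29 (0.00601), and ERN1 at -1.25 ± 0.22 (0.00137). HERPUD1 differed by -0.98 ± 0.13 (adjusted p = 0.000333) and CALR by -0.56 ± 0.11 (adjusted p = 0.00304). EDEM1 at 0.66 ± 0.10 (adjusted p = 0.000506) and ATF6 at 0.54 ± 0.11 (adjusted p = 0.00299) had the positive differences. CALR had 348, 338 and 351 FPKM in untreated WT libraries and 397, 390.2 and 384 with H2O2, and 369.8, 313 and 305 in untreated Atg7KO libraries and 252, 250.4 and 253 with H2O2, so it was lowest in Atg7KO with H2O2. SDF2L1 had 11.1, 12.0 and 12.9 FPKM in untreated WT libraries and 19.1, 18.4 and 16.03 with H2O2, and 13.1, 11.9 and 11.2 in Atg7KO with H2O2. MANF had 15.7, 15.8 and 15.1 FPKM in Atg7KO with H2O2, and HERPUD1 8.39, 7.12 and 6.53 in untreated Atg7KO libraries. MANF and SDF2L1 were highest of all in untreated Atg7KO replicate 1, with 29.1 and 29.8 FPKM against 16.2 and 16.2 FPKM, and 16.1 and 15.3 FPKM, in the other libraries of the group. Without it the differences were -1.0002 ± 0.10 and -0.95 ± 0.15, those of HSPA5 -1.90 ± 0.06, of XBP1 -1.12 ± 0.09 of ERN1 -1.45 ± 0.09, of HERPUD1 -0.87 ± 0.10, of CALR -0.47 ± 0.05, of EDEM1 0.62 ± 0.07 and of ATF6 0.48 ± 0.08, and all 9 calls held. EIF2AK3 (-0.53 ± 0.14, adjusted p = 0.0127) and CREB3L2 (0.78 ± 0.25, adjusted p = 0.035) did not pass with all libraries, and did without replicate 1 (-0.55 and 0.54, adjusted p = 0.000569 and 8.38e-13). With all libraries EIF2AK3 passed by DESeq2 (adjusted p = 0.00337), with at least 10 counts in every library (0.0086), with the gene length correction (0.0057) and by limma on log2(FPKM + 1) (0.00999), and CREB3L2 passed with no low count filter (4.69e-07). The calls for SDF2L1, CALR and ATF6 did not hold in every leave-one-out fit, with adjusted p-values up to 0.0193, 0.0125 and 0.0124, and with a correction for gene length CALR (-0.33) and ATF6 (0.32) missed it as well.

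The next question was how Atg7KO and WT cells differed after H2O2, a comparison free of the library that stood apart. Of 32 members 11 were higher and 14 lower in Atg7KO cells, against 27.7% and 27.9% of 15909 genes. The median was -0.04, and that of all genes 0.00. HSPA5 and XBP1 alone of the members passed all 3 thresholds, both lower. Of all genes 7.46% passed them in either direction. HSPA5 had 104, 106 and 111 FPKM in Atg7KO cells and 477, 451 and 409 in WT cells, 4.19-fold lower (log2 -2.07 ± 0.05, adjusted p = 5.19e-17). XBP1 had 17.2, 18.6 and 18.0 FPKM against 45.3, 42.7 and 37.6, 2.35-fold lower (log2 -1.23 ± 0.06, adjusted p = 4.95e-17). ERN1 was lower at 10.5, 11.7 and 11.5 FPKM against 17.9, 19.3 and 16.3 (log2 -0.67 ± 0.05), and EIF2AK3 at 2.56, 3.27 and 2.69 against 4.76, 4.79 and 4.60 (log2 -0.74 ± 0.09). The groups of these 4 genes did not overlap, as was so for 27 of the 32 members. The share of all genes without overlap was not counted. ATF6, by contrast, was higher in Atg7KO cells at 9.16, 8.98 and 8.50 FPKM against 7.26, 7.58 and 7.80 (log2 0.23 ± 0.05, adjusted p = 0.000358), and CREB3L2 at 34.0, 35.96 and 33.4 against 23.1, 23.0 and 22.3 (log2 0.59 ± 0.04). ATF6 and CREB3L2 lost the call in a fit of all 12 libraries (adjusted p = 0.0242 and 0.0178), and ATF6 with a correction for gene length (0.11, adjusted p = 0.0651).

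Of the 9 chaperones 6 were lower and 1 higher in Atg7KO cells after H2O2, against 27.9% and 27.7% of all genes. DNAJB11, a J-domain protein that brings substrates to BiP, had 13.9, 13.6 and 14.0 FPKM against 23.7, 22.6 and 24.7 in WT cells (log2 -0.78 ± 0.05, adjusted p = 8.99e-16). SDF2L1, MANF, DNAJB9 and CRELD2 were lower by between 0.26 and 0.57 on the log2 scale. DNAJC3, which restrains PERK, was the exception, at 18.9, 17.6 and 17.9 FPKM against 13.2, 14.1 and 13.8 (log2 0.40 ± 0.05). HSP90B1 (-0.01 ± 0.03) and HYOU1 (0.05 ± 0.04) did not pass the test, and their groups overlapped. CALR was lower (-0.64 ± 0.03) and its partners CANX (0.21 ± 0.03) and UGGT1 (0.52 ± 0.04) higher. The disulfide isomerases stayed within 0.13 of 0, and PDIA4 alone passed (0.13 ± 0.04, adjusted p = 0.00171).

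ERAD genes divided. EDEM1 had 32.9, 33.4 and 32.9 FPKM in Atg7KO cells against 18.3, 19.0 and 17.7 in WT cells (log2 0.85 ± 0.04, adjusted p = 3.24e-18), and EDEM3 had 8.19, 8.15 and 8.16 against 4.65, 5.24 and 5.30 (log2 0.68 ± 0.06, adjusted p = 8.56e-12). SYVN1 and SEL1L were also higher, by 0.29 and 0.19. HERPUD1 was lower, at 6.96, 6.81 and 7.03 FPKM against 11.5, 11.9 and 12.3 (log2 -0.79 ± 0.06, adjusted p = 2.19e-13), and DERL1 by 0.17. EDEM2 and DERL2 did not pass. Of the translocon genes SEC61B (-0.57 ± 0.05) and SEC61A1 (-0.17 ± 0.03) were lower and SSR1 (0.46 ± 0.04) higher.

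Because whole stretches of chromosome can differ between 2 cell lines, each member was set beside the median log2 fold change of the 20 tested genes on each side of it. Of the 8 members with the largest differences, 4 had neighbours near 0: the medians were 0.05 for XBP1, -0.02 for HERPUD1, 0.06 for ERN1 and 0.0048 for EIF2AK3. EDEM3 had a neighbour median of 0.12, with the same sign as its difference. HSPA5, at -2.07, had a neighbour median of -0.34, with 33 of 40 neighbours lower in Atg7KO cells. Around EDEM1 the 31 neighbours had a median of -0.24, opposite in sign to its 0.85. CALR lay at -0.64 among neighbours with a median of -0.64, 36 of 40 of them lower, and so did not stand out from its stretch of the chromosome. SEC61A1 lay at -0.17 among neighbours at -0.51 (35 of 40 lower), DNAJB11 at -0.78 among neighbours at -0.38 and SEC61B at -0.57 among neighbours at -0.35. Untreated cells, with replicate 1 included, had neighbour medians of -0.41 around CALR, -0.42 around HSPA5, -0.43 around SEC61A1 and -0.43 around DNAJB11. In the WT response the medians around these genes were -0.11, 0.13, -0.17 and 0.23.

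**Figure D4:**
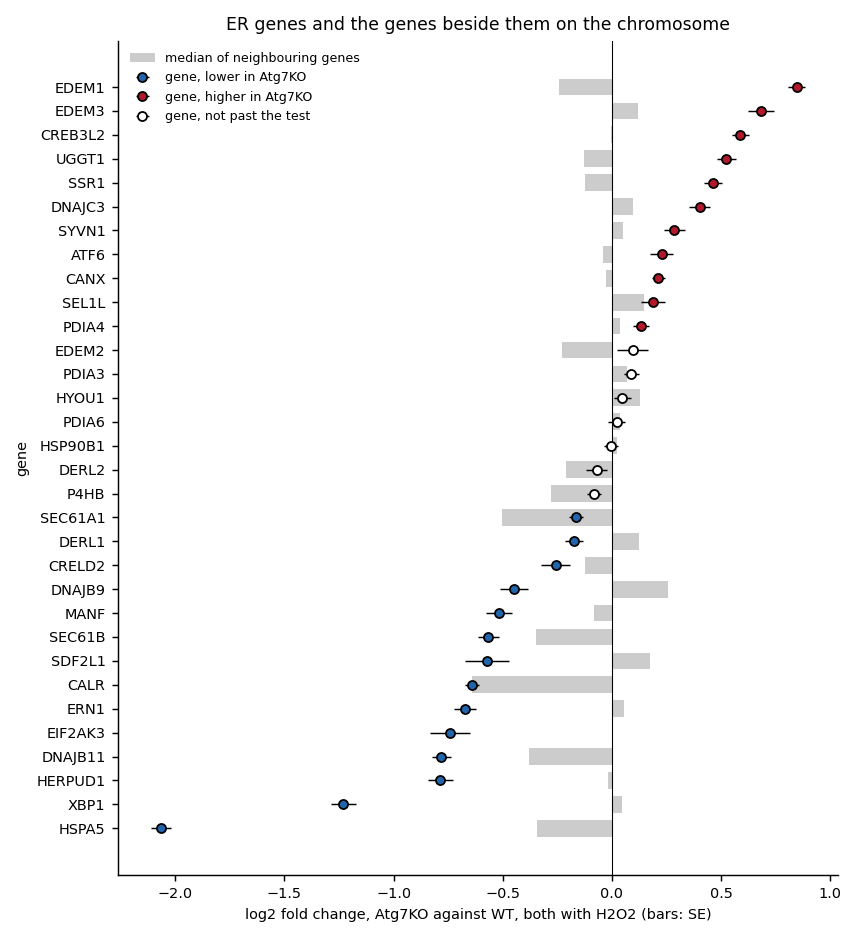
Log2 fold change of Atg7KO against WT, both with H2O2, for the 32 tested members (points, with SE) and the median of the tested genes within 20 on each side (grey bars). HSPA5 at -2.07 and XBP1 at -1.23 lie well beyond their bars, and CALR at -0.64 lies at the end of its bar.

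In untreated cells the lines differed less. With all libraries 0 members were called higher and 0 lower by edgeR, against 4.42% and 3.28% of 15357 genes, and 0 passed all 3 thresholds, against 3.5% of genes. At an unadjusted p under 0.05 there were 12, 8 higher and 4 lower, against 17.3% and 15.6% of genes. DESeq2 called 4 higher and 1 lower, against 8.78% and 7.57%. Limma on log2 FPKM called 0 members with either pseudocount, against 6.73% of genes with a pseudocount of 1 and 6.71% with 0.1. Without untreated Atg7KO replicate 1, 10 were called higher and 7 lower, against 18.2% and 17.9% of genes. HSPA5 had 195, 177 and 190.0 FPKM in WT cells and 226, 171 and 166 in Atg7KO cells (log2 0.00 ± 0.14), and -0.15 ± 0.04 without replicate 1 (adjusted p = 0.00222). XBP1 differed by 0.13 ± 0.17, and by -0.09 ± 0.06 without it, neither past the test. ERN1 had 2.03, 1.95 and 2.23 FPKM in WT cells and 2.19, 3.76 and 3.39 in Atg7KO cells (log2 0.59 ± 0.20, adjusted p = 0.0878). It passed with the gene length correction (0.74, adjusted p = 0.00379) and without replicate 1, whose level lay within the WT range (log2 0.79 ± 0.08, adjusted p = 2.02e-18). ATF6 was at 9.23, 10.6 and 10.7 FPKM against 12.7, 12.2 and 12.6 in WT cells (log2 -0.30 ± 0.10, adjusted p = 0.0728). It passed in a fit of all 12 libraries (-0.31, adjusted p = 0.00757) and without replicate 1 (log2 -0.23 ± 0.05, adjusted p = 9.53e-05). EIF2AK3 (-0.20 ± 0.10) and CREB3L2 (-0.19 ± 0.24) did not pass with or without it. Without replicate 1, MANF (0.50 ± 0.08), HSP90B1 (0.32 ± 0.04) and PDIA4 (0.33 ± 0.04) were higher and DNAJB11 (-0.44 ± 0.05) and SEC61A1 (-0.35 ± 0.04) lower in untreated Atg7KO cells.

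The PERK and ATF4 branch, a list of 12 genes from general knowledge that were not members, was set beside the members. Its genes were not set beside their neighbours on the chromosome. In WT cells 11 rose and 1 fell, against 30.9% and 30.1% of all genes, with a median log2 change of 1.48. In Atg7KO cells 7 rose and 0 fell, against 13.6% and 12.4%, with a median of 0.94. Without untreated replicate 1 the counts were 11 and 0, against 29.8% and 28.6%. ATF3, a stress-induced transcription factor, rose from a mean of 4.16 to 81.1 FPKM in WT and from 1.74 to 35.9 in Atg7KO cells, and SESN2, an inhibitor of mTORC1, from 11.5 to 78.7 and from 8.21 to 54.2. Their responses did not pass the test of a difference between lines (0.08 and -0.05 on the log2 scale, and -0.09 and -0.15 without replicate 1). PPP1R15A, which reverses the translation block of PERK, rose from 26.4 to 151 FPKM in WT and from 26.2 to 70.6 in Atg7KO cells, an interaction of -1.08 ± 0.11 (adjusted p = 4.57e-05; -1.01 without replicate 1). TRIB3, a pseudokinase induced by ATF4, rose from 7.31 to 32.7 and from 5.13 to 9.88 FPKM, an interaction of -1.21 ± 0.19 (adjusted p = 0.000925; -1.06 without replicate 1). Over the 12 genes the interaction was negative for 4 and positive for 2, against 7.01% and 7.02% of genes, and without replicate 1 negative for 5 and positive for 2, against 16.3% and 17.8%. The positive ones were NUPR1, at a mean of only 0.0902 FPKM in untreated Atg7KO cells, and VLDLR, the very low density lipoprotein receptor (1.41, and 1.37 without replicate 1). Between lines after H2O2, 9 of the 12 were lower in Atg7KO cells and 0 higher, against 27.9% and 27.7% of genes, with a median of -0.88, led by TRIB3 at -1.73 ± 0.15. In untreated cells 4 of the 12 were lower and 1, CEBPB, higher, against 3.28% and 4.42% of genes, and without replicate 1 the counts were 6 and 2, against 17.9% and 18.2%. CHAC1, a glutathione-degrading enzyme, was among those already lower (-1.69 ± 0.23, and -1.92 without replicate 1), as was NUPR1, at 0.0902 against 1.47 FPKM.

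**Figure D5:**
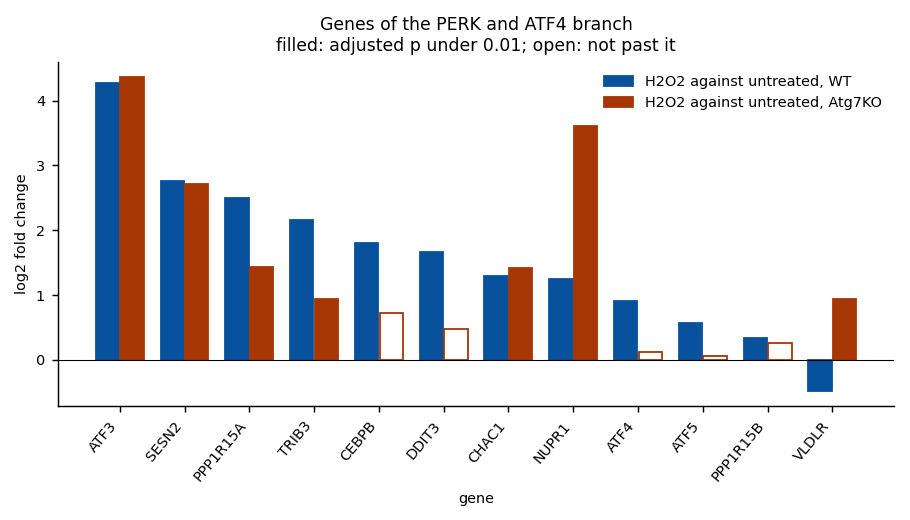
Log2 fold change of H2O2 against untreated for the 12 genes of the PERK and ATF4 branch in WT (blue) and Atg7KO (brown), filled where the adjusted p was under 0.01. ATF3 (4.28 and 4.36) and SESN2 (2.76 and 2.72) have bars of like height in the lines, while PPP1R15A and TRIB3 are lower in Atg7KO.

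In the other ER lists genes went both ways between lines after H2O2, with medians between -0.11 and 0.19. Of all genes 27.7% were higher and 27.9% lower. Genes of these lists were not set beside their neighbours on the chromosome, so whether neighbouring genes shared a difference was not tested. Of 24 other folding enzymes 7 were higher and 5 lower in Atg7KO cells. ERO1A, the oxidase that recharges disulfide isomerases, was higher at 36.8 against 17.7 FPKM (1.05 ± 0.04), and TMX1, a membrane thioredoxin, at 59.0 against 30.8 (0.93 ± 0.04). Untreated, ERO1A had a mean of 29.4 FPKM in Atg7KO against 19.5 in WT, and did not pass the test with all libraries. TMX1 was already higher in untreated cells (1.002 ± 0.14, adjusted p = 0.0039; 0.84 ± 0.05 without replicate 1). TXNDC12 was lower (-1.12 ± 0.12). Of 14 other sensors, regulators and factors 13 were tested, 4 of them higher and 3 lower. MBTPS2, the protease that cuts ATF6, was higher (0.64 ± 0.06), and in WT cells it fell with H2O2 (-0.81 ± 0.06). CREB3L1, the relative of CREB3L2, fell in both lines, by 1.01 in WT and 1.74 in Atg7KO (1.90 without replicate 1) on the log2 scale, and was lower in Atg7KO cells after H2O2 (-0.61 ± 0.06). Of 23 other ERAD components 6 were higher and 7 lower, the largest at 0.48 (ERLEC1, an ER lectin) and -0.47 (RNF5, a ubiquitin ligase).

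Reads of some members could be shared with other genes, since the strand setting of the counting is not given in the sources used here. DNAJB9 overlaps PNPLA8 and THAP5 on the opposite strand, which held up to 300.0% and 210.3% of its reads in a library. SYVN1 overlaps FAU on the same strand, with up to 867% of its reads, and MRPL49, with up to 347%. DERL2 overlaps MIS12 (97.2%), CRELD2 overlaps ALG12 (41.5%), DNAJB11 overlaps TBCCD1 (26.3%) and SEC61A1 overlaps RUVBL1 (22.9%) and MGLL (20.6%), all on opposite strands. The pseudogene PDIA3P1 held up to 6.56% of the reads of PDIA3. For HSPA5, ERN1 and EDEM1, no overlapping gene or pseudogene held over 0.1% of the reads, and XBP1P1 held at most 0.448% of those of XBP1.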

How the data were processed

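Read counts per gene and FPKM, for 58735 genes in 12 libraries, were used as deposited. The counts were made by the authors with HISAT2 2.0.5 and featureCounts 1.5.0-p3 on GRCh38, according to the submitters' processing notes. FPKM, which scales fragments to gene length and library size, was also computed by the authors and deposited. The strand setting, and how multi-mapping reads were handled, are not given in the sources used here. Groups follow the sample labels.

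Counts were tested with edgeR 4.0.16 in R 4.3.3, by the quasi-likelihood test with robust fitting, after a filter on low counts (filterByExpr, minimum count 10) and TMM scaling. Each comparison was fitted on its own libraries, and the interaction on all 12. P-values were adjusted over all genes tested by the method of Benjamini and Hochberg, and an adjusted p under 0.01 was a call. Log2 fold changes carry their standard error, and FPKM their SD. DESeq2 1.42.0, RLE scaling, other count filters, a replicate block, a gene length correction, limma 3.58.1 on log2(FPKM + 1) and log2(FPKM + 0.1), and leaving out each replicate were tried as alternatives. Libraries held 15602183 to 17659496 counted reads, and genes with few reads have the widest errors.

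The members and lists were chosen with earlier results of these data known. Members among the 8 largest changes of a comparison, the 5 sensors and factors and HSPA5 are given per library, and of each other list up to 3 genes a direction could be named. A list gene missing under its symbol was left out, so 130 of 131 were found. ERSE, ERSE-II and the core of the unfolded protein response element were searched in RefSeq promoters as textbook patterns.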

Additional observations from a re-analysis of the deposited data

Results flagged for a closer look

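The response to H2O2 differed between the lines, by the interaction test, for 9 members (edgeR quasi-likelihood test, adjusted over all genes). The Atg7KO response minus the WT response, on the log2 scale, was -2.06 for HSPA5, -1.35 for XBP1, -1.34 for MANF, -1.32 for SDF2L1, -1.25 for ERN1, -0.98 for HERPUD1, -0.56 for CALR, 0.66 for EDEM1 and 0.54 for ATF6. HSPA5, XBP1, ERN1, MANF, HERPUD1 and EDEM1 stayed past the threshold under each alternative run. SDF2L1, CALR and ATF6 did not stay past it under some of them.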

How the results depend on the processing

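Counts of members called are given as higher and lower. For Atg7KO against WT with H2O2 (11 and 14), one fit of all 12 libraries called 5 and 8. For untreated cells (0 and 0), DESeq2 called 4 and 1, all 12 libraries 5 and 3, and the gene length correction 2 higher, and leaving out 1 replicate gave 0 to 10 and 0 to 7. For H2O2 in Atg7KO (3 and 3), DESeq2 called 5 higher, all 12 libraries 6 and 7, and the gene length correction 5 higher, and leaving out 1 replicate gave 3 to 9 and 0 to 14. For the difference of the responses (2 and 7), DESeq2 called 6 and 12, no low count filter 6 higher, at least 10 counts in every library 11 lower, and the gene length correction 1 higher, and leaving out 1 replicate gave 1 to 10 and 5 to 14. The highest value of each of these ranges came without untreated Atg7KO replicate 1. For H2O2 in WT (17 and 12), all 12 libraries called 12 and 8, and leaving out 1 replicate gave 16 to 17 higher and 12 lower. In WT the members past all 3 thresholds (4) were 3 to 5 when 1 replicate was left out. Shares of all genes are given above for DESeq2 in untreated cells and for the fits without untreated Atg7KO replicate 1. For the other fits in this paragraph they are not given. The cause of these changes, and whether they followed the share of all genes called, was not tested.

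Of the changes followed through the alternatives, directions turned only for some that edgeR did not call with all libraries. HSPA5 in untreated cells was 0.000153 with DESeq2, 0.000164 with RLE scaling and 0.00298 with no low count filter, and -0.146 to 0.0768 when 1 replicate was left out. Over the same leave-one-out fits, untreated XBP1 ran from -0.0901 to 0.249 and CREB3L2 from -0.340 to 0.0699. In the Atg7KO response XBP1 ran from -0.330 to 0.0115 and EIF2AK3 from -0.168 to 0.0139. The values of -0.146, -0.0901, 0.0699 and 0.0115 came without untreated Atg7KO replicate 1, and that of HSPA5 passed the edgeR test (adjusted p = 0.00222).

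Same-numbered libraries did not deviate together (r from -0.069 to 0.098), so the numbers were not taken to pair the samples. With the replicate block, 1 member fell in Atg7KO in place of 3. The share of all genes called in that fit is not given, so whether the drop went beyond that share was not tested.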

Other observations

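Genes of ER export and ER turnover were described in the same way, from lists of general knowledge. They were not set beside their neighbours on the chromosome, so whether neighbouring genes shared a difference was not tested. Of 17 genes of the COPII coat and its cargo receptors, 6 were higher and 4 lower in Atg7KO cells after H2O2. Of all genes 27.7% were higher and 27.9% lower. SEC23A, an inner coat subunit, was at 29.9 FPKM against 15.3 in WT (log2 0.96 ± 0.04), and had been higher untreated, at 44.3 against 22.1 (1.003 ± 0.09, adjusted p = 0.000657; 1.01 without untreated Atg7KO replicate 1). MCFD2, a cargo receptor subunit, was likewise higher in both states, at 40.3 against 27.0 FPKM with H2O2 and 35.9 against 23.9 untreated (log2 0.58, and 0.64 without that replicate). SURF4, a cargo receptor, was lower after H2O2 at 134 against 174 FPKM (-0.39 ± 0.03). Untreated means were 168 against 196 FPKM, not past the test with all libraries.

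Of 9 ER-phagy receptors, which bring pieces of the ER to autophagosomes, 2 were higher and 3 lower in Atg7KO cells after H2O2. Of all genes 27.7% were higher and 27.9% lower. ATL3, an atlastin, was at 15.0 FPKM against 8.48 (0.81 ± 0.05), and its response differed between the lines (0.73 ± 0.12, adjusted p = 0.000957; 0.68 without that replicate). RETREG1 (FAM134B) was at 1.30 against 2.42 FPKM (-0.91 ± 0.13), and untreated at 1.33 against 1.99, not past the test with all libraries. CALCOCO1 fell with H2O2 in both lines, by 0.78 in WT and 0.83 in Atg7KO (0.98 without that replicate) on the log2 scale. Of 13 genes of N-glycosylation, 6 were higher and 2 lower in Atg7KO cells after H2O2, against 27.7% and 27.9% of all genes. DAD1, a subunit of the oligosaccharyltransferase, was at 159 against 111 FPKM (0.51 ± 0.04). The gap was already there untreated, at a mean of 185 against 87.0 FPKM, though none of the 13 passed the test untreated with all libraries. In WT cells 1 of these 13 rose and 5 fell with H2O2, against 30.9% and 30.1% of all genes. GANAB, the catalytic subunit of glucosidase II, was among those that fell, from 142 to 96.6 FPKM (-0.56 ± 0.04). Of 19 other genes of translocation, 6 were higher and 8 lower in Atg7KO cells after H2O2, against 27.7% and 27.9% of all genes. SRP54 of the signal recognition particle was at 48.1 against 32.9 FPKM and SEC62 at 17.1 against 24.9.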
